A study of Homo sapiens with 6 samples.

Results

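Islands of H3K27me3, the intervals of enriched reads in the deposited lists, were examined in 5 blocks of the genome where 1 of 3 lymphoma cell lines had few input reads. An island belonged to a block when its midpoint lay in it (hg19). The blocks were chromosome 8 from 5 to 44 Mb and chromosome 17 from 0 to 18 Mb, with low input in Pfeiffer, and chromosome 8 from 131 to 137 Mb, with low input in WSU-DLCL2. The others were chromosome 11 from 114 to 134 Mb and chromosome 10 from 86 to 99 Mb, both with low input in KARPAS-422. In all, 2388 of the 72972 listed islands were members: 253 of the low-input line of a block and 2135 of the other lines. An island of another line was called kept where it met an island of the low-input line by at least 1 base.

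The 3 lines come from diffuse large B cell lymphoma, a tumour of mature B cells, and the labels give all of them as EZH2 mutant, with no wild-type line used here. Average gIC50 values are 28 nM for Pfeiffer, 134 nM for WSU-DLCL2 and 232 nM for KARPAS-422, in a study of lines that differ in sensitivity to the EZH2 inhibitor GSK126. Cells were kept in culture medium before fixation, and no drug is named for that time. A line is represented by a single pair of libraries (1 of H3K27me3 and 1 of input), and with no replicates no test was made. Islands of a line share their library and lie in 5 blocks, so medians, quartiles and shares over islands are descriptions, and 95% intervals (exact binomial) cover counting error only.

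EZH2 is the catalytic subunit of the Polycomb repressive complex PRC2, which methylates lysine 27 of histone H3. The trimethylated form, H3K27me3, marks silent genes, often as broad domains over developmental regulators, and mutant EZH2 of lymphoma favours the trimethylated state. Input is sheared chromatin sequenced without the antibody, and its reads follow, among other things, the amount of DNA present at a place. Loss of part of a chromosome is common in lymphoma. No island was assigned to a gene here, since no annotation on hg19 was used, and islands are named by position, counted from 1.

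Relative density is an island's H3K27me3 reads per kb divided by the median of all autosomal islands of the same line, which was 19.7 reads per kb for Pfeiffer, 20.9 for WSU-DLCL2 and 20.1 for KARPAS-422. Relative input is the same quantity for input reads, with medians of 10.8, 10.7 and 7.50 reads per kb. Autosomal islands held 16039824 to 17188115 H3K27me3 reads a line and 5694645 to 8800268 input reads, fewest in KARPAS-422. The fold is the authors' ratio of H3K27me3 to input reads after scaling of the libraries, read here within each list, and its 95% interval covers counting error only.

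The blocks were chosen by the input of the low-input line, so its input there is a description. Pooled over islands, relative input was 0.59 in Pfeiffer in the larger chromosome 8 block and 0.54 in the chromosome 17 block. It was 0.61 in WSU-DLCL2 in the smaller chromosome 8 block, and 0.55 in KARPAS-422 in each of the chromosome 11 and chromosome 10 blocks. The other lines had 0.92 to 1.105 in these blocks, with 2 exceptions where input was raised: WSU-DLCL2 in the larger chromosome 8 block (1.44) and Pfeiffer in the smaller one (1.43). Part of the chromosome 10 block also had low input in WSU-DLCL2, 0.68 from 87 to 88 Mb and 0.61 from 88 to 89 Mb.

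Several limits of the blocks were not ends of low input. In KARPAS-422 relative input was 0.58 just inside the start of the chromosome 11 block, from 114 to 115 Mb, and 0.57 just outside, from 113 to 114 Mb. At the other end it was 0.63 from 133 to 134 Mb and 0.51 from 134 to 135 Mb, where islands covered 5.78% in KARPAS-422, 75.9% in Pfeiffer and 63.2% in WSU-DLCL2. On chromosome 10 it was 0.55 from 98 to 99 Mb and 0.53 from 99 to 100 Mb. In Pfeiffer on chromosome 17 it was 0.59 from 17 to 18 Mb and 0.57 from 18 to 19 Mb. Beside the smaller chromosome 8 block WSU-DLCL2 had no island from 130 to 131 Mb or from 137 to 138 Mb, and beside the larger one Pfeiffer had none from 4 to 5 Mb or from 44 to 45 Mb, so input could not be read there. Pfeiffer had none in the outermost Mb inside the larger block either, from 5 to 6 Mb and from 43 to 44 Mb.

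Islands of the low-input lines in their blocks were sparse and unevenly spread. Pfeiffer had 65 islands in the larger chromosome 8 block, where WSU-DLCL2 had 238 and KARPAS-422 448. These 65 lay in 14 of 39 Mb bins, whereas WSU-DLCL2 had islands in 33 and KARPAS-422 in 32 bins. The 3 fullest bins, starting at 10, 22 and 27 Mb, held 29 of the 65. No Pfeiffer island lay in the 7.91 Mb from 29455501 to 37368750, which held 38 whole islands of WSU-DLCL2 and 54 of KARPAS-422. Bins with a Pfeiffer island were also fuller in the other lines: islands of WSU-DLCL2 covered 65.2% of them, against 29.7% of the bins without, and those of KARPAS-422 49.96% against 15.1%.

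The 68 Pfeiffer islands of chromosome 17 lay in 12 of 18 bins, and WSU-DLCL2 listed 217 islands there and KARPAS-422 listed 336. Bins with and without a Pfeiffer island were alike for KARPAS-422, at 43.5% and 41.9% covered, but not for WSU-DLCL2, at 44.6% and 18.1%. The bin from 7 to 8 Mb held 12 of them. From 9879751 to 16365000, over 6.49 Mb, Pfeiffer had none, and whole islands numbered 60 for WSU-DLCL2 and 138 for KARPAS-422. In the smaller chromosome 8 block WSU-DLCL2 had 15 islands, against 39 in Pfeiffer and 86 in KARPAS-422, and 8 of the 15 lay from 134 to 135 Mb.

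KARPAS-422 had 91 islands in the chromosome 11 block, against 242 in Pfeiffer and 254 in WSU-DLCL2. They lay in 15 of 20 bins, and the bins starting at 117, 119 and 126 Mb held 50 of them. The chromosome 10 block was the emptiest, with 14 islands in KARPAS-422 in 3 of 13 bins, against 139 in Pfeiffer and 136 in WSU-DLCL2. Its longest stretch without a KARPAS-422 island, from 88446001 to 98131500, measured 9.69 Mb and held 107 whole islands of Pfeiffer and 113 of WSU-DLCL2.

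**Figure D1:**
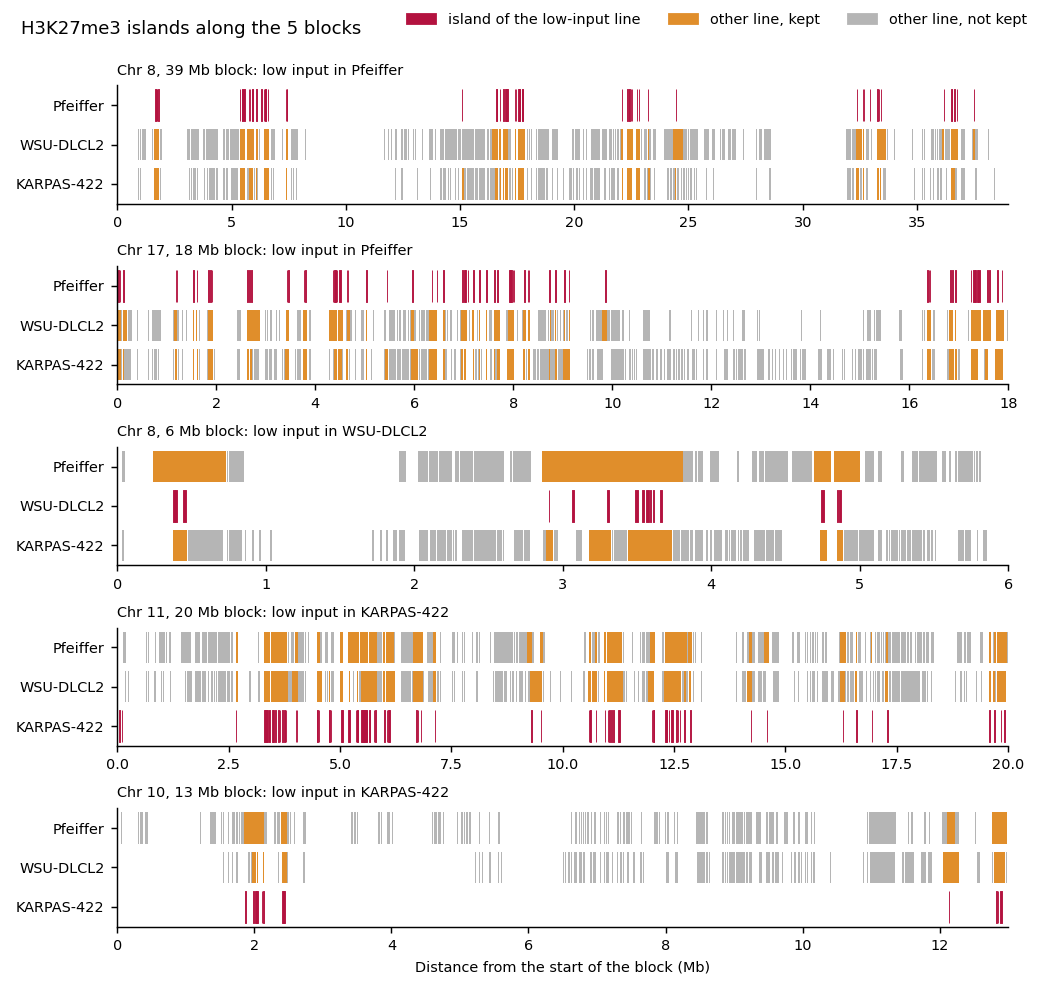
Islands of each line along the 5 blocks, against the distance from the start of the block in Mb. Dark red bars are islands of the low-input line, orange bars islands of another line that meet one of them, and grey bars islands that meet none; the 65 Pfeiffer islands of the 39 Mb block sit in short groups with long empty stretches, while grey and orange bars fill much of the rows of the other lines.

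Nearly all islands of the low-input lines in their blocks met islands of the other lines. Of all 253, 242 met an island of both other lines, 11 met 1 of them and 0 met neither. Neither this split nor the shares of bases given below were computed over all autosomes, so they are not read as particular to the blocks. Of the 65 Pfeiffer islands in the larger chromosome 8 block, 64 met WSU-DLCL2 and 65 met KARPAS-422, and of the 68 on chromosome 17, 67 and 66 did. Over all autosomes 77.1% of Pfeiffer islands met an island of WSU-DLCL2 and 77.9% one of KARPAS-422. All 15 WSU-DLCL2 islands met Pfeiffer and 14 met KARPAS-422, against 76.0% and 76.4% over all autosomes. KARPAS-422 islands met Pfeiffer in 88 of 91 and 14 of 14 cases and WSU-DLCL2 in the same numbers, against 71.9% and 72.2%. Of their bases, 95.4% lay in islands of WSU-DLCL2 and 94.6% in islands of KARPAS-422 for Pfeiffer in the larger chromosome 8 block. On chromosome 17 these shares were 97.7% and 92.2%. For WSU-DLCL2 in the smaller chromosome 8 block 100% lay in islands of Pfeiffer and 95.1% in islands of KARPAS-422. For KARPAS-422, 96.6% lay in islands of Pfeiffer and 96.2% in those of WSU-DLCL2 on chromosome 11, and 100% and 89.8% on chromosome 10.

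All 253 were short, from 1.5 to 47.25 kb, and 202 were under 20 kb. Over all autosomes 49.0% of the Pfeiffer islands, 52.6% of WSU-DLCL2 and 61.6% of KARPAS-422 were under 20 kb. No island of a low-input line reached 50 kb in its blocks, whereas 17.5% of the autosomal islands of Pfeiffer, 15.8% of WSU-DLCL2 and 11.1% of KARPAS-422 did. Median lengths in Pfeiffer were 15.75 kb in the larger chromosome 8 block (quartiles 11.25 and 21.75 kb) and 13.5 kb on chromosome 17 (10.5 and 18 kb). WSU-DLCL2 had a median of 12.75 kb in the smaller chromosome 8 block, and KARPAS-422 had 11.25 kb on chromosome 11 and 10.5 kb on chromosome 10. Over all autosomal islands the medians were 20.25, 18.75 and 15.75 kb in the order Pfeiffer, WSU-DLCL2 and KARPAS-422.

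Their H3K27me3 reads per kb were in the lower part of each list, while their folds were near the top. Median relative density was 0.87 for Pfeiffer in the larger chromosome 8 block, 0.86 on chromosome 17 and 0.81 for WSU-DLCL2. In KARPAS-422 it was 0.90 on chromosome 11 and 0.88 on chromosome 10. The lowest values per block, 0.69 to 0.78, lay near the level under which 1% of all autosomal islands of these lines fell (0.74 for Pfeiffer and WSU-DLCL2, 0.76 for KARPAS-422). Low input raises a fold by construction, so these folds restate the choice of the blocks: 51 of 65 and 62 of 68 islands of Pfeiffer had a fold of at least 2, where 10.5% of its autosomal islands do. In WSU-DLCL2 it was 8 of 15 (11.3% of its autosomal islands), and in KARPAS-422 83 of 91 and 13 of 14 (19.6%).

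**Figure D2:**
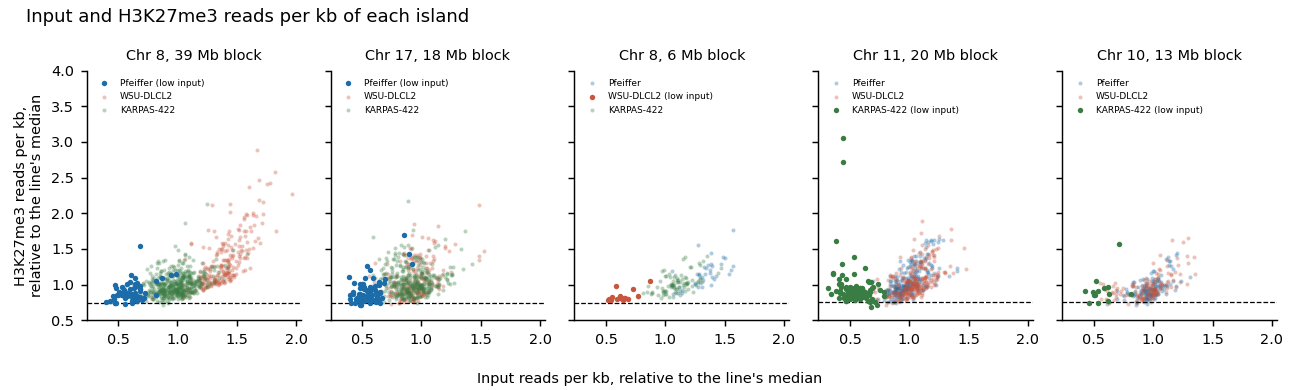
Relative density of H3K27me3 reads against relative input of every island in each block, 1 point an island, coloured by line; the dashed line is the relative density under which 1% of the autosomal islands of the low-input line fall. Islands of the low-input line lie at the left, with input below that line's median in all 253 and median relative densities of 0.81 to 0.90, above the dashed line.

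Of the 253 islands, 206 had a relative density below 1, and the densest of each block are described here. On chromosome 17 the densest Pfeiffer island, from 7077751 to 7083750, held 199 H3K27me3 and 55 input reads in 6 kb, or 33.2 H3K27me3 reads per kb. Its counterparts held 33.6 reads per kb for WSU-DLCL2, from 7075501 to 7090500, and 35.4 for KARPAS-422, from 7077001 to 7083750. Relative densities were 1.69, 1.61 and 1.76, so the 3 lines were close, at relative inputs of 0.85, 1.12 and 0.93. Folds were 3.12 (95% interval 2.30 to 4.28), 2.21 (1.86 to 2.63) and 3.09 (2.25 to 4.32). The second, from 8730001 to 8733750, had 28.0 reads per kb in Pfeiffer, 19.9 in a WSU-DLCL2 island of 24 kb and 28.3 in a KARPAS-422 island of 9.75 kb. At 17879251 to 17883000 Pfeiffer had 25.3 reads per kb, inside islands of 162 kb in WSU-DLCL2 (31.6) and 162.75 kb in KARPAS-422 (25.7).

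The longest Pfeiffer island of the chromosome 17 block was less dense than its counterparts. It ran from 4482751 to 4529250 (46.5 kb) at 16.9 H3K27me3 reads per kb, a relative density of 0.86. The WSU-DLCL2 island around it had 28.7 reads per kb in 109.5 kb and the KARPAS-422 island 26.1 in 55.5 kb, or relative densities of 1.37 and 1.299. Pfeiffer was the lowest of the 3 in H3K27me3 reads per kb, at a relative input of 0.48 against 0.92 and 0.93. Of the 68 islands, 3 met an island of only 1 other line: KARPAS-422 for the one at 5442751, and WSU-DLCL2 for those at 9857251 and 17617501.

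In the larger chromosome 8 block the densest Pfeiffer island lay from 6708001 to 6712500, with 30.2 reads per kb (136 reads in 4.5 kb). It marked the left edge of long islands of the other lines, 123 kb from 6707251 in WSU-DLCL2 at 34.5 reads per kb and 122.25 kb from 6708001 in KARPAS-422 at 23.8. The next, from 20092501 to 20097000, had 22.7 reads per kb and a relative input of 0.99, and was the 1 island of the 65 without a WSU-DLCL2 counterpart. The third, from 10797001 to 10808250, had 22.4 reads per kb inside a WSU-DLCL2 island of 168 kb with 45.2 and a KARPAS-422 island of 43.5 kb with 26.7. The longest, from 22532251 to 22579500, had 16.5 reads per kb in 47.25 kb. There WSU-DLCL2 had 50.4 reads per kb over 309 kb and KARPAS-422 27.1 over 263.25 kb, at relative inputs of 0.55, 1.75 and 1.06 in the order of gIC50.

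Long islands of Pfeiffer in the smaller chromosome 8 block held only short islands of WSU-DLCL2. An island of 693 kb in Pfeiffer, from 133860001 to 134553000, had 34.6 reads per kb at a relative input of 1.57. WSU-DLCL2 had inside it an island of 3 kb from 133905001, with 22.0 reads per kb, and another of 9.75 kb from 134065501, with 16.3, which met no island of KARPAS-422. The longest WSU-DLCL2 island of the block, from 134557501 to 134581500, had 17.2 reads per kb in 24 kb. Around it Pfeiffer had 28.2 reads per kb over 252 kb and KARPAS-422 22.9 over 222 kb. At 131440501 to 131460000 WSU-DLCL2 had 20.6 reads per kb, inside islands of 497.25 kb in Pfeiffer (26.9) and 99.75 kb in KARPAS-422 (25.1). The third by density, from 134610751 to 134617500, had 19.6 and lay in the same 252 and 222 kb islands as the longest one.

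Narrow, dense islands were found in KARPAS-422 on chromosome 11. From 125025001 to 125026500 it had 92 H3K27me3 and 5 input reads in 1.5 kb, or 61.3 reads per kb, with a fold of 11.2 that is poorly determined (4.62 to 35.3). Pfeiffer had 25.4 reads per kb there over an island of 339.75 kb, and WSU-DLCL2 25.1 over 359.25 kb. From 118479001 to 118480500 KARPAS-422 had 82 and 5 reads, or 54.7 H3K27me3 reads per kb, inside islands of 83.25 kb with 31.0 in Pfeiffer and 111 kb with 34.3 in WSU-DLCL2. The third, from 126303751 to 126308250, had 32.4 reads per kb in 4.5 kb, inside islands of 336.75 kb with 25.9 and 297 kb with 26.9. A short island reports its peak and a long island its mean, so these densities are not of equal stretches.

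The longest KARPAS-422 island of the chromosome 11 block, from 120102751 to 120131250, had 16.4 reads per kb in 28.5 kb. Pfeiffer had 26.3 reads per kb around it over 171.75 kb and WSU-DLCL2 23.2 over 195 kb. Of the 91 islands, 6 met an island of only 1 other line. WSU-DLCL2 alone met those at 118743001, 118753501 and 118787251, and Pfeiffer alone those at 119186251, 119352751 and 128586001. On chromosome 10 the densest KARPAS-422 island, from 88423501 to 88425750, had 31.6 reads per kb in 2.25 kb, inside islands of 78.75 kb with 28.2 in Pfeiffer and 63.75 kb with 21.4 in WSU-DLCL2. From 98847001 to 98854500 it had 21.2, and the longest, from 98817001 to 98838750, had 19.0 in 21.75 kb. Both lay inside 1 island of 208.5 kb in Pfeiffer (27.7) and 1 of 174 kb in WSU-DLCL2 (33.9). The third by density, from 88107751 to 88117500, had 19.5, against 27.4 over 101.25 kb in Pfeiffer and 20.6 over 12 kb in WSU-DLCL2, where relative input was 0.66.

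Seen from the other lines, few islands were kept. Of 2135 islands, 272 (12.7%, 95% interval 11.4 to 14.2%) met an island of the low-input line. Both other lines are counted, so a domain marked in both is counted in each. In the larger chromosome 8 block Pfeiffer kept 31 of 238 WSU-DLCL2 islands (13.0%, 9.02 to 18.0%) and 44 of 448 KARPAS-422 islands (9.82%, 7.23 to 13.0%). Over all autosomes 76.0% of the WSU-DLCL2 islands and 71.9% of the KARPAS-422 islands met an island of Pfeiffer. On chromosome 17 Pfeiffer kept 43 of 217 WSU-DLCL2 islands (19.8%), the largest of the 10 shares, and 50 of 336 KARPAS-422 islands (14.9%).

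WSU-DLCL2 kept 5 of 39 Pfeiffer islands (12.8%, 4.30 to 27.4%) and 7 of 86 KARPAS-422 islands (8.14%, 3.34 to 16.1%) in the smaller chromosome 8 block. Over all autosomes it met 77.1% and 72.2% of them. KARPAS-422 kept 40 of 242 Pfeiffer islands (16.5%) and 36 of 254 WSU-DLCL2 islands (14.2%) on chromosome 11. On chromosome 10 it kept 7 of 139 (5.04%, 2.05 to 10.1%) and 9 of 136 (6.62%, 3.07 to 12.2%). Its autosomal background was 77.9% of the Pfeiffer and 76.4% of the WSU-DLCL2 islands. With at least 50% of an island covered, the shares of both other lines pooled dropped to 3.06% in the larger chromosome 8 block, 6.51% on chromosome 17, 0.800% in the smaller chromosome 8 block, 2.62% on chromosome 11 and 2.18% on chromosome 10. The background was taken at an overlap of at least 1 base only, so the shares with 50% covered have none beside them. At 1 base every share was under the background. Since the blocks were outlined with these lists known, nothing is read from that.

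Which islands were kept went with their H3K27me3 density in the other lines, values that the choice of blocks did not use. In all 10 pairs of block and other line, kept islands had a higher median of H3K27me3 reads per kb than islands not kept, by 1.07 to 1.68 times. For WSU-DLCL2 in the larger chromosome 8 block the medians were 40.8 against 24.2 reads per kb, or relative densities of 1.95 (quartiles 1.67 and 2.15) against 1.16 (1.03 and 1.38). Only 1 of the 31 kept islands lay below the median of those not kept, and 3 of the 207 not kept lay above the median of those kept. For KARPAS-422 in the same block the medians were 24.1 against 19.4 reads per kb, and none of the 44 kept islands lay below the median of the rest. Relative input of kept and not kept islands was 1.59 and 1.36 in WSU-DLCL2 but 0.97 and 1.00 in KARPAS-422.

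On chromosome 17 the medians were 26.97 against 20.2 reads per kb for WSU-DLCL2 and 25.01 against 19.9 for KARPAS-422. In the smaller chromosome 8 block they were 26.9 against 21.9 in Pfeiffer and 23.9 against 20 in KARPAS-422, from 5 and 7 kept islands. On chromosome 11 they were 26.3 against 19.2 in Pfeiffer and 25.6 against 20.6 in WSU-DLCL2. The classes overlapped there: 29 of the WSU-DLCL2 islands not kept were denser than the median of the 36 kept, and 6 of the kept lay below the median of the rest.

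Chromosome 10 held the largest and the smallest contrast outside the raised input of chromosome 8. The 7 Pfeiffer islands kept had a median of 26.6 reads per kb against 18.1, and none of the 132 not kept exceeded that median. For the 9 WSU-DLCL2 islands kept it was 21.2 against 19.7, and 36 of those not kept were denser than the median of the kept. Relative input of the kept islands was 1.15 against 0.97 in Pfeiffer, and 0.68 against 0.98 in WSU-DLCL2. Over the 10 pairs, median relative input was higher in kept islands in 7 and lower in 3, by 0.694 to 1.19 times, so input moved with density in most pairs, and its part in the contrast was not tested. Folds of kept islands, which set H3K27me3 against input in the same island, had higher medians in all 10 pairs, by 1.11 to 1.39 times. Low input raises a fold by construction, so folds do not settle the part of input. The largest ratio, 1.39, was that of WSU-DLCL2 on chromosome 10, the pair with the lowest ratio of relative inputs (0.694). In the chromosome 10 block the median folds were 1.86 against 1.49 in Pfeiffer and 2.09 against 1.504 in WSU-DLCL2.

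Summed over the blocks, the kept share increased from class to class of relative density. It was 2 of 509 islands under 0.9 (0.393%), 24 of 516 from 0.9 to 1.0 (4.65%) and 28 of 421 from 1.0 to 1.1 (6.65%). From 1.1 to 1.3 it was 96 of 403 (23.8%, 19.7 to 28.3%), and at 1.3 or more 122 of 286 (42.7%, 36.9 to 48.6%). Each class pools both other lines, those with raised input among them. In the larger chromosome 8 block median relative density was 1.22 in WSU-DLCL2, with raised input, and 0.99 in KARPAS-422. In the smaller one it was 1.14 in Pfeiffer, with raised input, and 1.00 in KARPAS-422. The part of input in these classes was not tested. Low classes could be empty: 0 of 131 islands under 0.9 were kept in the larger chromosome 8 block, which allows a share of up to 2.29%, and 0 of 117 on chromosome 11, which allows up to 2.56%. Over all autosomes the share also rose from class to class. From the lowest to the highest class it went from 61.1 to 86.5% for Pfeiffer. For WSU-DLCL2 it went from 57.8 to 90.2%, and for KARPAS-422 from 65.4 to 89.5%. Shares of the densest class are set beside the autosomes as a description only, since the blocks were outlined with these lists known. On chromosome 17 Pfeiffer kept 50% of the islands at 1.3 or more (40 of 80), against 86.5% of such islands over all autosomes. KARPAS-422 kept 55.4% on chromosome 11 (36 of 65), against 89.5%.

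**Figure D3:**
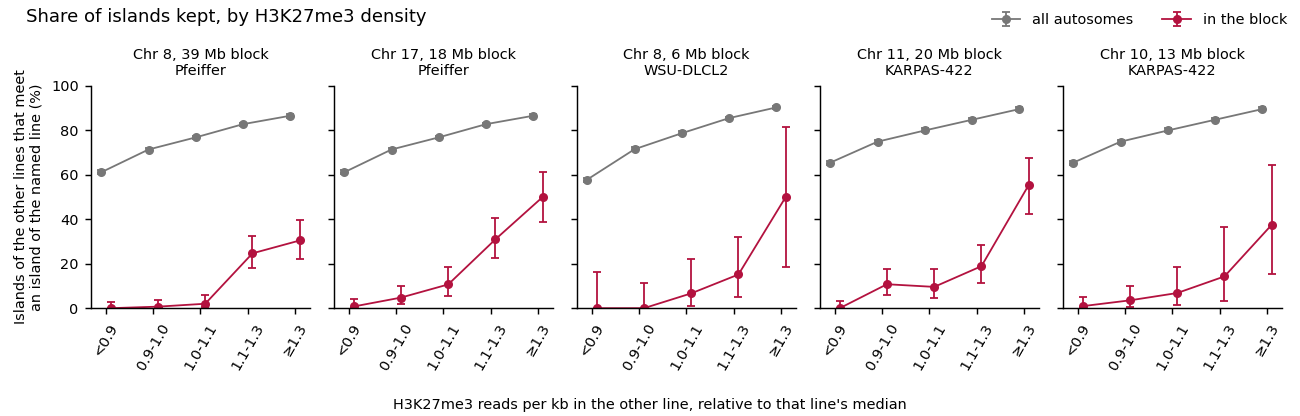
Share of islands of the other lines that meet an island of the low-input line, in percent, by relative density class in the other line; red points are the block, grey points all autosomes, and bars are exact 95% binomial intervals. In the blocks the shares are at or near 0 under 0.9 and reach 30.4 to 55.4% at 1.3 or more. The grey points range from 57.8 to 90.2%. The last class holds 10 islands in the 6 Mb block and 16 in the 13 Mb block. Both other lines are pooled, those with raised input among them.

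Kept islands were also longer in all 10 pairs, by 1.3 to 6.79 times in the median. A long island meets another by 1 base more easily, so part of this follows from the rule. In the larger chromosome 8 block the medians were 87.75 against 39.75 kb in WSU-DLCL2 and 46.1 against 15 kb in KARPAS-422. On chromosome 17 they were 52.5 against 13.5 kb and 28.9 against 12.75 kb, and on chromosome 11 64.1 against 19.5 kb in Pfeiffer and 73.5 against 18.75 kb in WSU-DLCL2. The 5 Pfeiffer islands kept in the smaller chromosome 8 block had a median of 252 kb, against 37.1 kb. The smallest contrast was again that of WSU-DLCL2 on chromosome 10, 19.5 against 15 kb, and there the order turned when islands had to be covered at the midpoint or by at least 50% (0.762 times in each case), at a false discovery rate of 1e-10 or less (0.969 times) and without the outer 1 Mb (0.927 times). It also turned for WSU-DLCL2 in the larger chromosome 8 block with at least 50% covered (0.845 times). With both other lines pooled, it turned on chromosome 10 with the midpoint or at least 50% covered (0.795 times).

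Length alone did not secure an island. In the larger chromosome 8 block an island of 392.25 kb in WSU-DLCL2 was not kept, and on chromosome 11 one of 233.25 kb in Pfeiffer was not. Of islands of 50 kb or more, 149 of 386 were kept (38.6%), against 85 of 641 from 20 to 50 kb (13.3%) and 38 of 1108 under 20 kb (3.43%). The order was the same over all autosomes, where Pfeiffer met 93.9, 84.3 and 63.8% of such islands. For WSU-DLCL2 these shares were 94.8, 83.0 and 64.6%, and for KARPAS-422 94.9, 84.2 and 66.7%. Summed over the blocks, shares also differed by density within a length class and by length within a density class. Lines with raised input are pooled in these classes too. Among islands of 20 kb or more, 192 were kept at a relative density of 1.1 or more, a share of 45.5% (40.7 to 50.4%), against 42 of 605 below it (6.94%, 5.05 to 9.27%). Among shorter islands it was 26 of 267 (9.74%) against 12 of 841 (1.43%). Shares also rose with density and with length over all autosomes. There Pfeiffer met 94.0% of longer islands at 1.1 or more and 82.8% below it, and 72.1% and 61.2% of shorter ones. In the same order WSU-DLCL2 met 95.4, 81.0, 76.5 and 60.9%, and KARPAS-422 94.7, 82.9, 73.4 and 64.6%. Chromosome 10 differed: of its islands under 20 kb, 0 of 18 were kept at 1.1 or more, which allows up to 16.7%, and 5 of 135 below it (3.70%), while below 1.1 only 2 of 103 longer islands were kept (1.94%). In the smaller chromosome 8 block no island under 20 kb was kept, 0 of 43 below 1.1 and 0 of 10 at 1.1 or more, which allows up to 6.98% and 30%.

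**Figure D4:**
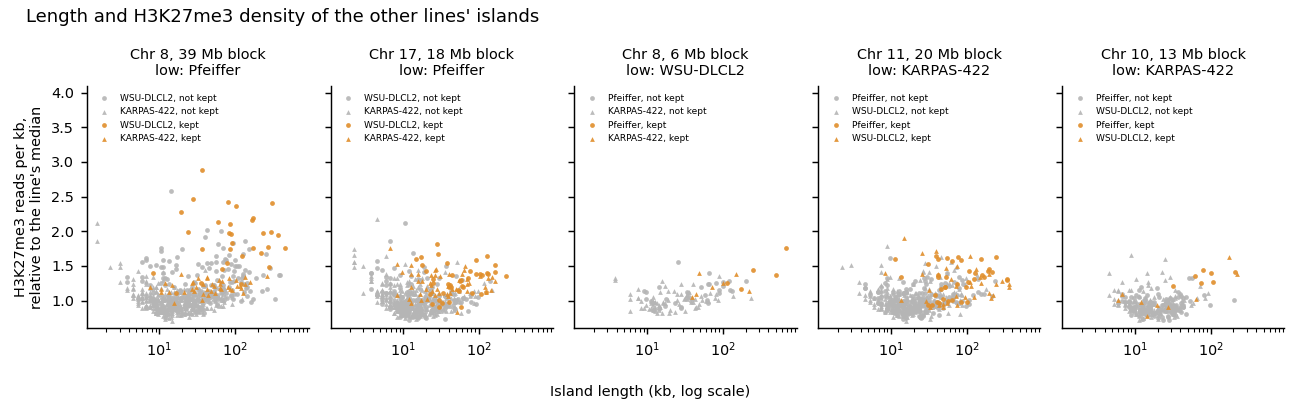
Relative density of H3K27me3 reads against length in kb (log axis) for every island of the other lines in each block, with circles and triangles for the 2 lines and orange for kept islands. Kept islands lie toward the upper right, with medians of 87.75 kb and 1.95 for WSU-DLCL2 in the 39 Mb block against 39.75 kb and 1.16 for those not kept, and grey points reach into the same area.

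The same contrast was computed for the third line, which had no low input in the block apart from the part of chromosome 10 named above. Islands of 1 of the other lines that met an island of the other one made up 60.4 to 90.8% of each list. Their median density was 0.91 to 1.22 times that of islands that did not, higher in 9 of 10 pairs, and their median length 1.47 to 4.50 times. The density ratio was larger for islands kept in the low-input line in all 10 pairs, and the length ratio in 8. Over all autosomes the density ratios were 1.08 to 1.12, the length ratios 1.60 to 1.81 and the fold ratios 1.05 to 1.103. The classes are of very unequal size, a small kept class in the low-input line and a large met class in the third line, so the ratios are set side by side only.

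Islands kept were nearly always islands of both other lines. Where an island also met one of the third line, 266 of 1693 were kept (15.7%, 14.0 to 17.5%). Where it did not, 6 of 442 were kept (1.36%, 0.500 to 2.93%). Of all 2135 islands, 1693 met the third line to begin with. The same split was not made over all autosomes, so these shares are not read as particular to the blocks. KARPAS-422 islands on chromosome 17 without a WSU-DLCL2 counterpart numbered 110, and Pfeiffer kept 0 of them, which allows a share of up to 2.73%. In the larger chromosome 8 block 77 WSU-DLCL2 islands had no KARPAS-422 counterpart, and Pfeiffer kept 1.

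Kept meant a fragment, not the whole island. The low-input line covered 11.5 to 40.3% of the bases of the kept islands, least in Pfeiffer islands of the smaller chromosome 8 block and most in KARPAS-422 islands of the larger one. Only 6 of 272 kept islands were covered from end to end. Of these 272, 174 held 1 fragment and 98 held 2 or more, up to 11 in a WSU-DLCL2 island on chromosome 11. Coverage and fragments were not computed over all autosomes, so these values are not read as particular to the blocks. Among the 497 overlaps, relative density was lower in the fragment than in the island around it in 476 and relative input in 492. The median ratio of relative densities was 0.45 to 0.86 per pair of block and line, and that of relative inputs 0.38 to 0.77. Both extremes belonged to the same pairs, the lowest to WSU-DLCL2 in the larger chromosome 8 block and the highest to WSU-DLCL2 on chromosome 10. The blocks were chosen by low input in the low-input line, so its lower input here is a description. In the overlaps, an island of that line is counted once for each island of another line that it met. The part of DNA amount in the missing islands was not tested.

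Some strong islands of both other lines were not kept. On chromosome 17 the first by mean relative density lay at 7341001 to 7354500 in WSU-DLCL2, with 35.4 reads per kb, and at 7341001 to 7359000 in KARPAS-422, with 26.7. Its folds of 2.83 (2.33 to 3.46) and 2.52 (2.05 to 3.11) were above the median folds of kept islands in these lines (1.98 and 2.29). The next, at 3870001 in WSU-DLCL2 and 3872251 in KARPAS-422, had 31.2 and 28.3 reads per kb over 36.75 and 35.25 kb. The third ran from 9966001, over 141.75 kb with 26.8 reads per kb in WSU-DLCL2 and over 51 kb with 31.2 in KARPAS-422.

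In the larger chromosome 8 block the first was at 22840501 to 22854750 in WSU-DLCL2, with 54.0 reads per kb, and at 22839751 to 22854000 in KARPAS-422, with 22.5. It lay just beyond the end of the WSU-DLCL2 island that holds the longest Pfeiffer island of the block. On chromosome 11 it was at 128393251 to 128420250 in Pfeiffer (26.1 reads per kb) and 128392501 to 128421000 in WSU-DLCL2 (32.4), with folds of 1.91 and 2.05. Another ran from 131505751 to 131574750 in Pfeiffer (25.01) and from 131505001 to 131573250 in WSU-DLCL2 (30.0). On chromosome 10 the first, at 94566001 to 94580250 in Pfeiffer and 94557751 to 94580250 in WSU-DLCL2, had 21.3 and 29.5 reads per kb. In the smaller chromosome 8 block it was at 131028751 to 131054250 in Pfeiffer (30.5) and 131030251 to 131046750 in KARPAS-422 (19.4). A stretch without an island in a list was not called there, which does not show that it held no H3K27me3 reads, since reads outside islands were not used here.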

How the data were processed

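Cells were crosslinked with formaldehyde and H3K27me3-bound chromatin was pulled down, per the labels' protocols. The submitters' processing notes name Bowtie, SICER and hg19. Tool versions, read filters and the handling of duplicates were not found in the sources used here. From the deposited names, the window was 750 bases, the gap was 2250 bases, and the false discovery rate was 0.001. Each deposited list holds whole counts of H3K27me3 and of input reads per island, p-values and q-values (false discovery rates), and a fold, the authors' ratio of both counts after library scaling. Reads outside islands were not used here, so total depth is unknown.

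Only the 22 autosomes were used. Counts were divided by island length and by the line's median. Shares have exact 95% binomial intervals, and a count of 0 is given with the share that 3 counts would make. Reads carry no molecular identifiers and PCR copies may repeat a molecule, so intervals cover counting error only. Islands named per block are the 3 densest of the low-input line with at least 20 reads, its longest, those of no other line, and the 3 densest of at least 10 kb in both other lines that were not kept, of which 1 to 3 are printed. Islands of the low-input line that met only 1 other line, and the density and length classes, were chosen after values were seen. The planned results on genes were not run, because the RefSeq tables used here are on GRCh38.p14. Blocks, members and lists were chosen with earlier results of these data known. Overlaps, shares and intervals were tested on simulated islands. The software was scipy 1.17.1, pandas 2.3.3, numpy 2.4.6 and matplotlib 3.10.9 under Python 3.11.15.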

Additional observations from a re-analysis of the deposited data

How the results depend on the processing

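The share kept and both ratios of medians were recomputed per block under 5 alternatives and 2 added after seeing the data (midpoint covered; chromosome 10 from 90 Mb). All 80 alternative density ratios stayed above 1 (1.03 to 1.96), as did 73 of 80 length ratios; 26 ratios were not formed, with fewer than 3 islands on a side. No paired analysis was possible because each line has 1 H3K27me3 library, with no replicates to pair, and the results come from no test.

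Values per block follow for both other lines pooled, in the order larger chromosome 8, chromosome 17, smaller chromosome 8, chromosome 11 and chromosome 10. Shares kept were 10.9, 16.8, 9.60, 15.3 and 5.82%, length ratios 3.40, 3.18, 5.69, 3.84 and 3.82, and density ratios 1.26, 1.28, 1.24, 1.304 and 1.33. With at least 50% of an island covered, shares were 3.06, 6.51, 0.800, 2.62 and 2.18%. Length ratios were then 1.89 and 1.90 in the first blocks, 1.43 on chromosome 11 and 0.795 on chromosome 10, and the density ratio on chromosome 11 was 1.39. With the midpoint covered, shares were 4.23, 10.3, 2.40, 5.65 and 2.18%. Length ratios were 1.96, 2.11, 1.67 (smaller chromosome 8) and 0.795 (chromosome 10), and density ratios 1.07 (smaller chromosome 8) and 1.38 (chromosome 11). At a false discovery rate of 1e-10 or less, shares were 15.7, 23.9 and 22.1% on chromosomes 8 (larger), 17 and 11, where the length ratio was 2.62. At a fold of at least 2, they were 39.0, 34.1, 51.1 and 31.3% in all but the smaller chromosome 8 block, with a length ratio of 6.27 in the larger one. Density ratios at that fold were 1.18, 1.19 and, on chromosome 10, 1.04. The cut was applied to every list, and low input raises a fold by construction. It left 217 of the 253 islands of the low-input lines (85.8%). Of the islands of the other lines it left 0 to 34.2% per block and line. Shares at that cut therefore follow in part from the choice of the blocks, and no autosomal share is given for it. For islands of at least 20 kb, shares were 18.3, 35.8, 16.7 and 26.2% in the first 4 blocks, and length ratios 2.11, 1.51 and, on chromosome 11, 2.22. Longer islands were also met more often over all autosomes, as given above by length class. No autosomal share was computed with the midpoint covered or at a false discovery rate of 1e-10 or less. On chromosome 10 from 90 Mb, the share was 1.83%, the length ratio 12.1 and the density ratio 1.51, from 4 kept islands. Within single lines the length order turned in WSU-DLCL2: 0.845 in the larger chromosome 8 block with 50% covered, and on chromosome 10 0.762 with 50% or the midpoint covered, 0.969 at 1e-10 and 0.927 without the outer 1 Mb. The cause of these shifts was not tested, beyond the loss of islands that a stricter rule brings. Total depth is unknown, and the smaller chromosome 8 and the chromosome 10 block rest on 12 and 16 kept islands.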
